A study of Saccharomyces cerevisiae and Saccharomyces paradoxus and Saccharomyces mikatae with 10 samples.

Results

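A set of 10 genes of Saccharomyces cerevisiae whose transcripts depend on oxygen or on haem was followed across natural yeast isolates. They were chosen by systematic name: the electron transport isoform genes COX5B (YIL111W) and CYC7 (YEL039C), the translation factor pair ANB1 (YJR047C) and HYP2 (YEL034W), the ATP/ADP carrier genes AAC1 (YMR056C), AAC3 (YBR085W) and PET9 (YBL030C), the haem synthesis gene HEM13 (YDR044W), the desaturase gene OLE1 (YGL055W) and the repressor gene ROX1 (YPR065W). Of these 10 genes, 8 were among the 4325 genes with values. ANB1 and HYP2 were not analysed here. OLE1 had no value in the S. mikatae strain, so it enters the comparisons of the other strains only.

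In budding yeast, haem is made by a pathway that consumes molecular oxygen, so the haem level reports the oxygen supply. With oxygen and haem, the activator Hap1 and the Hap2/3/4/5 complex raise genes of respiration, and Hap1 also raises ROX1. Rox1 then represses hypoxic genes. When oxygen is scarce Rox1 is lost, and the hypoxic isoform of several protein pairs replaces or joins the aerobic isoform.

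The study asked whether expression among yeasts follows descent or habitat. It sequenced polyadenylated RNA from 9 strains of 3 species, each grown from a single colony in a synthetic medium resembling oak exudate at 30 °C, restarted at an optical density of 0.1 and collected in mid-log phase at 0.5. Of the 6 S. cerevisiae strains, DBVPG1788 (isolated from soil) and YPS606 (from an oak tree) carry the environment label wild. The other 4 carry the labels wine (BC187), distillery (Y9), clinical (YJM145) and fruit juice (DBVPG6040). The S. paradoxus strains N17 and N44 came from oak trees and the S. mikatae strain IFO1815 from soil and decayed leaf, all 3 labelled wild. The labels name no engineered allele, drug or oxygen treatment, so all groups share 1 growth condition whose oxygen level was not stated. Each strain has 1 value per gene, and YPS606 has 1 value made from 2 libraries. Strains of a group therefore serve as its replicates, and the spread within a strain is unknown: neighbours in an order of strains cannot be said to differ.

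Levels are in FPKM (fragment numbers divided by the length of the gene and the size of the library), a unit inferred from the tools in the submitters' processing notes and from the values. FPKM summed to between 356258 (IFO1815) and 522913 (N17) per strain. Low values implied totals of 57.9 M to 153 M reads or fragments in the 6 S. cerevisiae strains, where M stands for mega. At those totals the least covered value of the 8 genes, AAC3 in DBVPG6040, rested on about 105 reads or fragments. For N17, N44 and IFO1815 no depth could be read. In IFO1815, 423 genes were listed at 0 against 1 to 5 in the other strains. The values of IFO1815 for the 7 of the 8 genes measured there are therefore set beside their S. cerevisiae chromosomes below. No batch or date of sequencing is labelled.

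The upstream sequences of the S. cerevisiae reference strain (assembly R64, RefSeq) were searched for letters of elements known in the oxygen response. Stretches around a core are printed for HEM13, COX5B, AAC3, OLE1 and ROX1, of which AAC3 and ROX1 hold only its first 6 letters. ANB1 also holds the core and is not printed. CYC7, AAC1, PET9 and HYP2 hold neither form. Capitals mark ATTGTTC or its first 6 letters, the core of the sites bound by Rox1, and each stretch reads 5′ to 3′ on the coding strand.
COX5B, chrIX:154987-155015: tttgattttgtATTGTTCgataaggcaac
HEM13, chrIV:546449-546477: ttgctttgcccATTGTTCtcgtttcgaaa
OLE1, chrVII:398490-398518: ttgattcatttATTGTTCtatttccatct
AAC3, chrII:415778-415805: ttttctttttcATTGTTtggttgccttc
ROX1, chrXVI:679289-679316: gaaaagggcctATTGTTgctgcctcttt

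These cores lie 224 bases before the start codon in COX5B, 182 in HEM13, 127 in OLE1, 194 in AAC3 and 393 in ROX1. The 7-letter core ATTGTTC, searched on both strands within 500 bases upstream of the start codon, was found for 4 of the 10 genes (COX5B, ANB1, HEM13 and OLE1) and in 11.8% of the 6000 upstream windows of the genome. COX5A, the aerobic partner of COX5B, also held it, on the opposite strand. The 6-letter core ATTGTT, contained in the longer one, was found for 6 of the 10 genes and in 48.9% of windows. COX5B, HEM13, OLE1 and ROX1 also held matches of it that are not printed, and which matches act was not tested. A match describes these letters in the reference strain and is not evidence of binding in any of the 9 strains.

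CYC7 holds neither core. A stretch upstream of it, on the minus strand, carries a tandem repeat known as a binding site of Hap1, with the repeated TAATAGCG in capitals.
CYC7, chrV:80078-80277: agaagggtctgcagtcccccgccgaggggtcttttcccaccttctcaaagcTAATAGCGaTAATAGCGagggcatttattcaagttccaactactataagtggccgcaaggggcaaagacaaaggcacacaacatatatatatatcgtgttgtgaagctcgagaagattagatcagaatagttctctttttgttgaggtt

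TAATAGCG occurred in 1.55% of the 6000 windows, on either strand, and at least 2 copies in 3 windows (0.05%). OLE1 carries a further element, the low oxygen response element ACTCAACAA (capitals), which is known to work through the membrane-bound activator Mga2.
OLE1, chrVII:398274-398304: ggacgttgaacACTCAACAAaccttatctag

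It starts 343 bases before the start codon, and 0.383% of windows held it on either strand. The consensus site of Hap1 was in 0.35% of windows on either strand and upstream of none of the 10 genes.

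**Figure D1:**
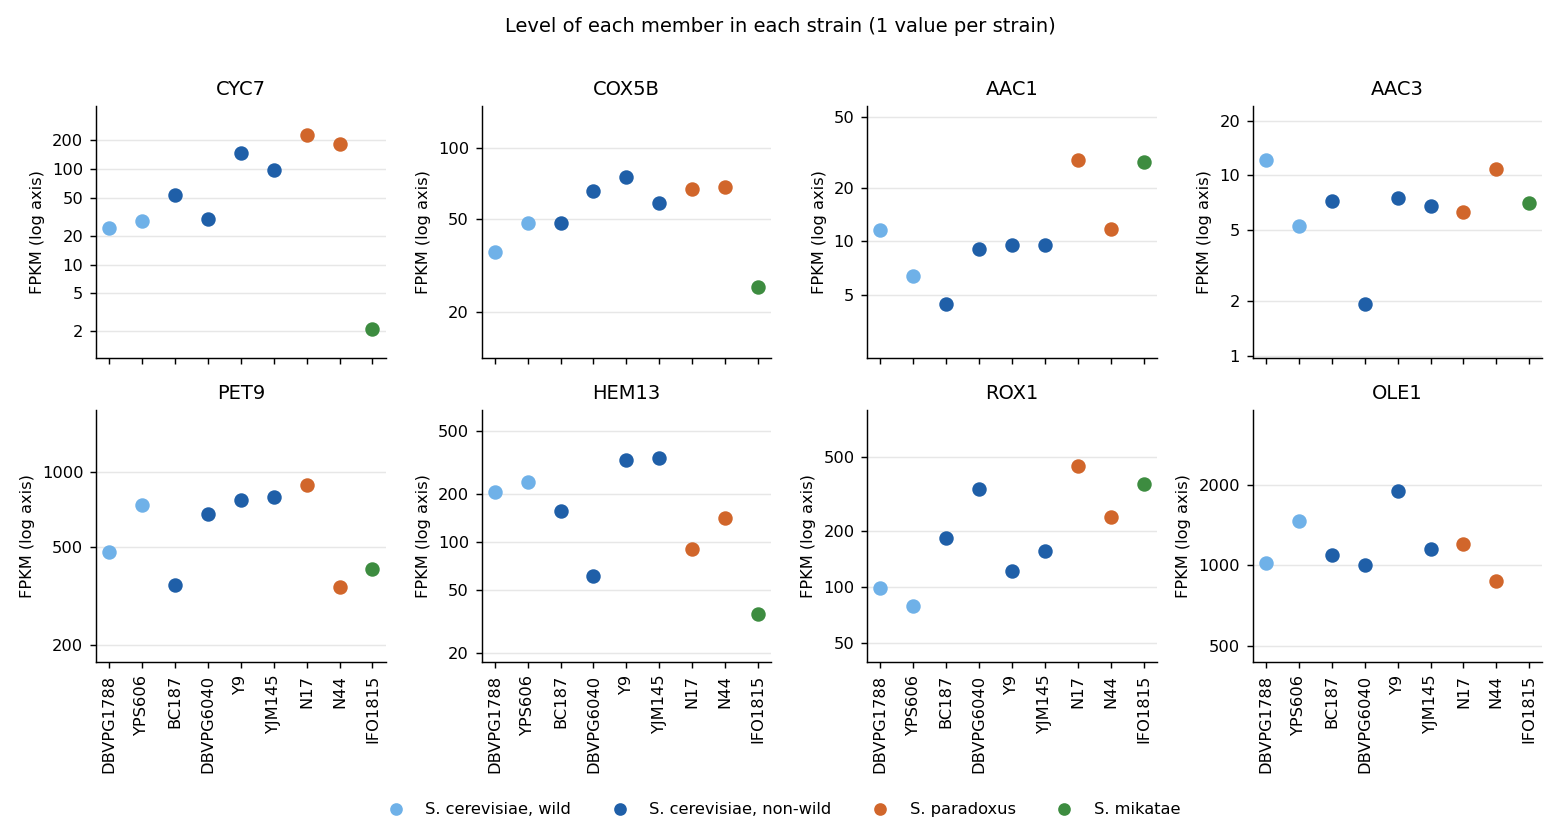
Level of each of the 8 genes in each of the 9 strains, in FPKM on a log axis, 1 point per strain coloured by species and environment. CYC7 runs from 2.11 in IFO1815 to 229 in N17, and OLE1 has no value in IFO1815.

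CYC7 encodes iso-2-cytochrome c, the minor form of the electron carrier between complexes III and IV, and its gene lies at chrV:79636-79977 on the minus strand as a single coding part. Among S. cerevisiae strains the wild DBVPG1788 and YPS606 had 24.3 and 28.8 FPKM, while the non-wild DBVPG6040, BC187, YJM145 and Y9 had 30.2, 53.0, 97.7 and 147. Both wild strains lay below all 4 others, though DBVPG6040 was close to YPS606. N17 and N44 had 229 and 182 FPKM, above every S. cerevisiae strain, and IFO1815 had 2.11. Across the 6 S. cerevisiae strains CYC7 spanned 6.06-fold, and its standard deviation on the log2(FPKM + 1) scale was at percentile 99.0 of 4267 genes.

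The partner CYC1, encoding the major iso-1-cytochrome c, did not follow this order. CYC1 had 510.5 FPKM in DBVPG1788 and 424.7 in YPS606, against 447.6 in BC187, 957.7 in DBVPG6040, 366.9 in Y9 and 479.3 in YJM145. It had 891.9 in N17, 455.8 in N44 and 385.6 in IFO1815. CYC7 therefore stood at 4.76% and 6.77% of the CYC1 level in DBVPG1788 and YPS606, and at 3.15%, 11.8%, 20.4% and 40.1% in DBVPG6040, BC187, YJM145 and Y9. It stood at 25.7% in N17, 39.9% in N44 and 0.547% in IFO1815. The coding sequences of CYC7 and CYC1 are 77% identical in R64 with a longest shared run of 35 bases, and how the counting divided reads of such pairs is not given in the sources used here.

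COX5B encodes the hypoxic form of subunit Va/Vb of cytochrome c oxidase and lies at chrIX:155222-155765 on the plus strand in 2 coding parts. It had 35.9 and 48.0 FPKM in DBVPG1788 and YPS606, and 47.8, 58.5, 65.6 and 75.7 in BC187, YJM145, DBVPG6040 and Y9. The S. paradoxus strains had 66.8 and 68.0, inside the S. cerevisiae range, and IFO1815 had 25.4, below it. The spread within S. cerevisiae was 2.11-fold, at percentile 70.9 of all genes. COX5A, the aerobic form, was higher than COX5B in every strain, from 147 FPKM in IFO1815 to 419 in N17. COX5B amounted to between 10.5% (DBVPG1788) and 24.3% (Y9) of COX5A in S. cerevisiae, to 15.9% in N17, 34.9% in N44 and 17.3% in IFO1815.

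**Figure D2:**
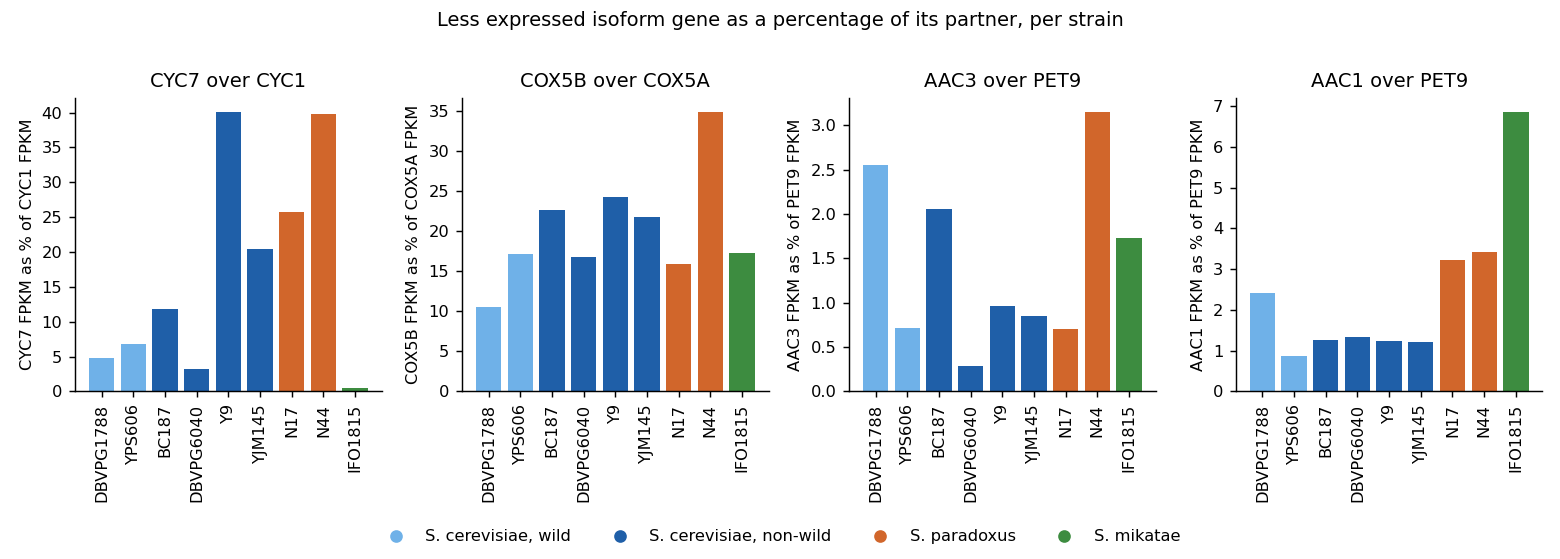
Level of the less expressed isoform gene as a percentage of its partner in each strain (bars from 0, 1 value per strain, linear axes). CYC7 reaches 40.1% of CYC1 in Y9 and 39.9% in N44. AAC1 stands at 3.23% of PET9 or more in the 3 strains of other species against at most 2.43% in S. cerevisiae. N44 has the lowest PET9 level of all strains.

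The 3 ATP/ADP carriers of the inner mitochondrial membrane exchange matrix ATP for cytosolic ADP. PET9 (AAC2; chrII:163041-163997, minus strand) encodes the main carrier and made up 92.1% to 98.4% of the summed carrier FPKM in every strain. It ranged in S. cerevisiae from 349 FPKM in BC187 over a median of 707 to 790 in YJM145, and it had 890 in N17, 343 in N44 and 407 in IFO1815. The S. paradoxus strains thus lay at opposite ends, outside the S. cerevisiae range on either side.

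AAC1 (chrXIII:387315-388244, minus strand) encodes a minor carrier expressed with oxygen. Its lowest S. cerevisiae level was 4.40 FPKM in BC187, the median was 9.27 and the highest was 11.5 in DBVPG1788. N44 had 11.7, just above that, while N17 and IFO1815 had 28.7 and 27.9. Relative to PET9, AAC1 was between 0.865% and 2.43% in S. cerevisiae, 3.23% in N17, 3.43% in N44 and 6.86% in IFO1815. S. cerevisiae and the others did not overlap in this ratio. In N44 the ratio reflects a low PET9 level, 343 FPKM, the lowest of the 9 strains, since AAC1 there was close to that of DBVPG1788. How often other gene pairs show no overlap was not examined.

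AAC3 (chrII:415983-416906, plus strand) encodes the carrier of anaerobic cells. It was low everywhere, with 1.95 FPKM in DBVPG6040, a S. cerevisiae median of 6.95 and 12.1 in DBVPG1788. N17, N44 and IFO1815 had 6.27, 10.8 and 7.03, all within that range. AAC3 reached 0.288% of PET9 in DBVPG6040 and 3.15% in N44, the ends of its range over the 9 strains. AAC3 and PET9 are 79.1% identical over their coding sequences with shared runs of up to 20 bases, and AAC1 and PET9 71.9% with up to 16. These runs are shorter than the 35 bases shared by CYC7 and CYC1. How the counting divided reads of these pairs is likewise not given, and its effect on the levels was not tested.

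HEM13 encodes coproporphyrinogen III oxidase, a step of haem synthesis that uses oxygen directly, and is known to rise when oxygen or haem is short. It lies at chrIV:546642-547628 on the plus strand, and a longer upstream stretch shows the surroundings of the core given above (capitals here mark its first 6 letters).
HEM13, chrIV:546342-546541: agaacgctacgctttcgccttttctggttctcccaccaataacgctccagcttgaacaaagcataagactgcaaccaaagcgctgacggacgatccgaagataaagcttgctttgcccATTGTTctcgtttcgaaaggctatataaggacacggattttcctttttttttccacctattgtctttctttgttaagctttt

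HEM13 had 209 and 239 FPKM in DBVPG1788 and YPS606, and 60.9, 158, 328 and 341 in DBVPG6040, BC187, Y9 and YJM145. DBVPG6040 was the low strain of the species, and the other 5 lay between 158 and 341. N17, N44 and IFO1815 had 90.3, 143 and 35.2, all below those 5 but, in N17 and N44, above DBVPG6040. The spread within S. cerevisiae was 5.61-fold, at percentile 98.2 of all genes.

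OLE1, the stearoyl-CoA desaturase that makes unsaturated fatty acids with oxygen, lies at chrVII:398628-400160 on the plus strand. Its S. cerevisiae values ran from 1001 FPKM in DBVPG6040 over a median of 1123 to 1899 in Y9. N17 had 1200 and N44 had 875. OLE1 had a higher median than any other of the 8 genes and a smaller spread within S. cerevisiae, 1.90-fold at percentile 68.0.

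ROX1 (chrXVI:679693-680799, plus strand) had 99.5 and 79.6 FPKM in DBVPG1788 and YPS606, and 123, 157, 183 and 337 in Y9, YJM145, BC187 and DBVPG6040. Both wild strains were below all 4 non-wild strains, and DBVPG6040 stood well above the rest of its species. N17, N44 and IFO1815 had 445, 238 and 356, all above the 5 S. cerevisiae strains other than DBVPG6040, which N17 and IFO1815 also exceeded. The spread within S. cerevisiae was 4.23-fold, at percentile 96.4.

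ROX1 and HEM13, repressor and target, tended to opposite orders over 8 strains, but not within S. cerevisiae once DBVPG6040 was left out. Over the 8 strains of S. cerevisiae and S. paradoxus, Pearson's r of log2(FPKM + 1) was −0.80 and Spearman's rho −0.76. Without YPS606 and N17, the strains farthest from the median ROX1 level, r was −0.82. Of 3888 genes with a mean of at least 10 FPKM, 1.00% had an r with ROX1 as low as that of HEM13. Over the 6 S. cerevisiae strains r was −0.75 and rho −0.49, and without DBVPG6040 r was −0.11 over 5 strains, so within the species the relation rests on that strain. These points share species as well as ROX1 level, and the values are a description of these strains.

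The ratio of HEM13 to ROX1 restates the same values for each strain. It was 2.10 in DBVPG1788, 3.0 in YPS606, 2.67 in Y9 and 2.18 in YJM145, but 0.865 in BC187 and 0.181 in DBVPG6040. It was 0.203 in N17, 0.600 in N44 and 0.0990 in IFO1815. Over the 8 strains the r with ROX1 was −0.44 for OLE1, −0.38 for AAC3 and 0.56 for COX5B. It was 0.49 for CYC7, 0.56 for AAC1 and 0.065 for PET9. The share of 3888 genes with an r as low ran from 8.36% for OLE1 to 67.0% for COX5B. Over the 6 S. cerevisiae strains AAC3 had an r of −0.70, close to that of HEM13, and a rho of −0.37. Of 3775 genes, 2.97% had an r as low as that of AAC3, against 2.01% for HEM13. DBVPG6040 was also the strain with the lowest AAC3 level. DBVPG6040 had raised medians on chromosomes I (0.79 on the log2 scale against the other S. cerevisiae strains) and XI (0.74), whereas its other chromosome medians were between 0.097 and 0.18. None of the 10 genes lies on chromosome I or XI, but of the regulators listed below HAP4, SPT23 and IXR1 lie on XI. SPT23 had 57.7 FPKM in DBVPG6040 and at most 41.8 in the other S. cerevisiae strains. HAP4 had 423 in DBVPG6040, below the 460 of YJM145, and IXR1 was not analysed here. Whether the raised chromosomes bear on the levels of the 10 genes was not tested.

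**Figure D3:**
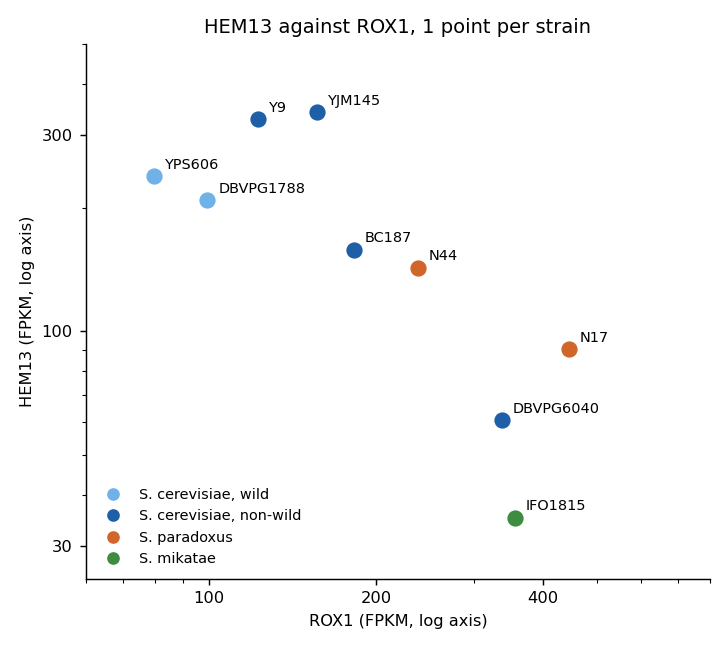
HEM13 level against ROX1 level in FPKM, both on log axes, 1 point per strain. DBVPG6040 and the 3 strains of other species lie toward high ROX1 and low HEM13, and Y9 and YJM145 have the highest HEM13 levels, 328 and 341.

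Differences were tested with limma on log2(FPKM + 1) over all genes, with Benjamini-Hochberg adjustment over all genes and a threshold of 0.05 on the adjusted p. The first comparison sets the 6 S. cerevisiae strains against the 3 of other species, the second against the 2 of S. paradoxus, so they share strains and are not independent of each other. As all strains of the other species are wild isolates, species and environment cannot be told apart fully in either. The median difference of all genes was −0.10 in the first and −0.31 in the second comparison, and each difference is to be read against that shift.

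CYC7 was lower in S. cerevisiae than in S. paradoxus, 63.5 ± 49.3 FPKM (SD, n = 6) against 205 ± 33.6 (SD, n = 2), and was the only one of the 8 genes to pass in that comparison. The difference was −2.0 on the log2(FPKM + 1) scale (SE 0.61, limma adjusted p = 0.0374), with all 6 S. cerevisiae strains below both of S. paradoxus. Among 4282 genes tested, 21.5% were called lower and 2.45% higher in S. cerevisiae, so 1 of 8 is no more than the genome gave. The call was lost under quantile normalisation (−1.84, adjusted p = 0.0727 by limma) and under median centring (−1.66, 0.0958). It was also lost when any of YPS606 (adjusted p = 0.0625), DBVPG1788 (0.0533), DBVPG6040 (0.0556), BC187 (0.0587), N17 (0.180) or N44 (0.114) was left out, and kept without Y9 (0.0114) or YJM145 (0.0353).

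AAC1 was the other gene whose strains did not overlap, at 8.39 ± 2.55 FPKM (SD, n = 6) in S. cerevisiae. Against S. paradoxus the difference was −1.10 (SE 0.37, limma adjusted p = 0.0516), and against all 3 strains of other species, with 22.8 ± 9.58 FPKM (SD, n = 3), it was −1.29 (SE 0.36, adjusted p = 0.0643). Neither passed. Leaving out N44 took both past the threshold (−1.71 with adjusted p = 0.0252, and −1.69 with 0.0390, by limma), as did leaving out DBVPG1788 in the comparison with S. paradoxus (−1.20, 0.0476). Other alternatives took the difference from S. paradoxus the other way: it was −0.49 (limma adjusted p = 0.452) without N17, −0.62 (0.248) after quantile normalisation and −0.77 (0.144) after median centring. Restricting the wider comparison to genes above 0 in every strain gave an adjusted p of 0.0387 by limma. Groups without overlap and lower in S. cerevisiae made up 30.4% of genes against S. paradoxus, where 2 of the 8 genes did so, and 11.1% against both species, where 1 of the 7 tested did so. Groups without overlap and higher in S. cerevisiae made up 5.49% and 3.89% of genes, and none of the 8 did so.

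No gene of the set passed against the 3 strains of other species, where 1.44% of 4239 genes were called higher and 4.81% lower and 3 of the 7 tested had an unadjusted p under 0.05, as did 25.2% of all genes. HEM13 averaged 223 ± 106 FPKM (SD, n = 6) in S. cerevisiae against 89.5 ± 53.8 (SD, n = 3) outside it, a difference of 1.32 (SE 0.58, limma adjusted p = 0.194). ROX1 was 163 ± 93.0 against 346 ± 104 FPKM, a difference of −1.20 (SE 0.42, limma adjusted p = 0.112). CYC7 differed by 0.020 (SE 1.26), with S. paradoxus above and S. mikatae below every S. cerevisiae strain. COX5B, AAC3 and PET9 differed by 0.14, −0.31 and 0.28 with adjusted p of 0.629 or more by limma.

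Leaving out DBVPG6040 changed both HEM13 and ROX1. Against S. paradoxus, HEM13 was then higher by 1.10 (limma adjusted p = 0.0377), compared with 0.77 (SE 0.55, 0.331) with all strains. The ROX1 difference was then −1.40 (limma adjusted p = 0.0215), compared with −1.16 (SE 0.47, 0.101). In that setting 3.01% of genes were called higher and 24.7% lower. Against both species ROX1 also passed without DBVPG6040 (−1.44, limma adjusted p = 0.0346, with 5.82% of genes called lower), and HEM13 did not (1.65, 0.0634). Leaving out N17 instead shrank both differences from S. paradoxus, to 0.44 for HEM13 (limma adjusted p = 0.736) and to −0.71 for ROX1 (0.467).

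**Figure D4:**
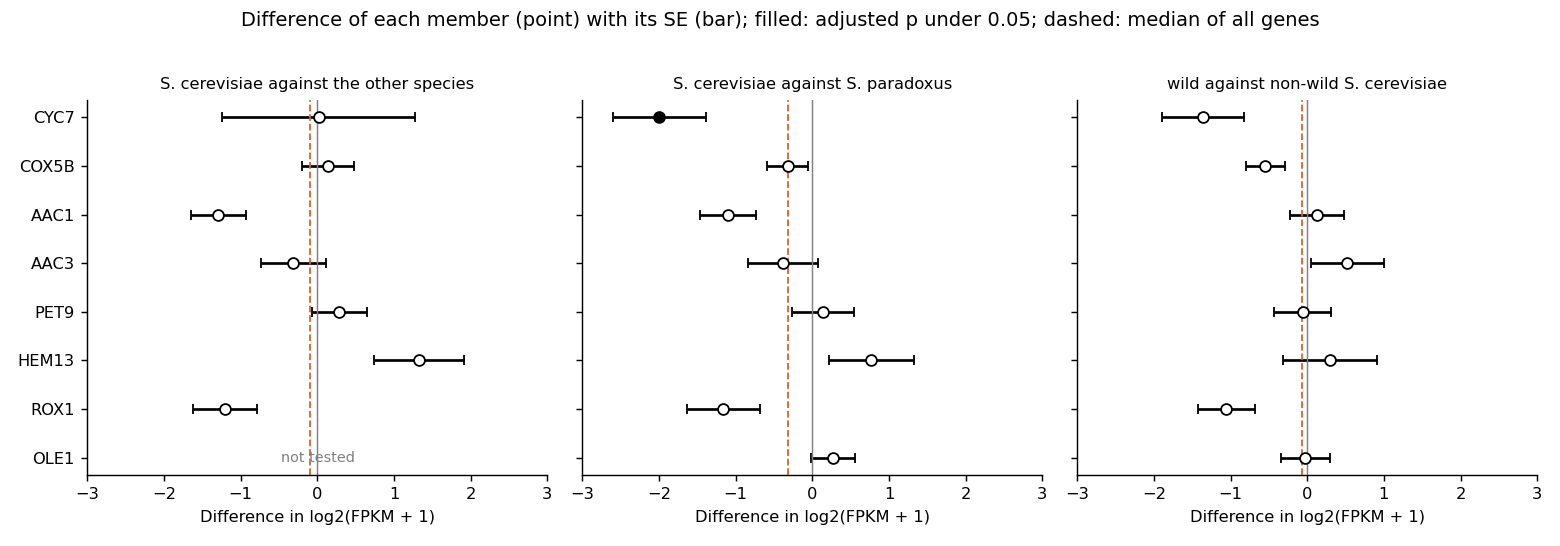
Difference in log2(FPKM + 1) of each gene in the 3 comparisons (points, with bars of 1 SE from limma), and the median difference of all genes as a dashed line. CYC7 against S. paradoxus (filled) is the only point with an adjusted p under 0.05, and OLE1 was not tested against both species.

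The comparison of habitat within S. cerevisiae set DBVPG1788 and YPS606 against the 4 non-wild strains, and no gene of 4267 passed (0% called by limma, with 1.31% at an unadjusted p under 0.05). CYC7 was 26.5 ± 3.17 FPKM (SD, n = 2) in wild and 82.0 ± 51.7 (SD, n = 4) in non-wild strains, a difference of −1.36 (SE 0.53, limma unadjusted p = 0.0306, adjusted p = 1.00). ROX1 was 89.5 ± 14.0 against 200 ± 94.6 FPKM, a difference of −1.05 (SE 0.37, limma unadjusted p = 0.0202, adjusted p = 1.00). These were the 2 of the 8 genes with an unadjusted p under 0.05 and also the 2 whose strains did not overlap. Groups without overlap made up 3.37% of genes in the lower and 1.41% in the higher direction. COX5B differed by −0.55 (SE 0.25, limma unadjusted p = 0.0570), and the other 5 genes by between −0.057 and 0.52.

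IFO1815 was read against the chromosomes of the S. cerevisiae reference, because its genes at 0 were unevenly placed along them. Chromosomes and nearest genes are those of R64, and the gene order of IFO1815 itself was not examined. CYC7 differed in IFO1815 by −4.05 from the S. cerevisiae mean on the log2(FPKM + 1) scale, at percentile 4.50 of chromosome V. On that chromosome 12% of genes were at 0 and the median difference was −0.37. HEM13 differed by −2.43, at percentile 15.6 of chromosome IV with 13.2% of genes at 0. Each had 1 gene at 0 among its 10 nearest. ROX1 differed by 1.29, at percentile 99.1 of chromosome XVI, where 22.3% of genes were at 0, and AAC1 by 1.67, at percentile 98.6 of chromosome XIII with 0.289% at 0. COX5B lay at percentile 5.19 of chromosome IX, where no gene was at 0. PET9 and AAC3 lay at percentiles 31.6 and 66.3 of chromosome II, where 11.9% of genes were at 0. The IFO1815 values of their partners and of the list genes were not set against their chromosomes. IFO1815 is a single strain and these are values with no test, and the part of mapping in them was not tested.

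HEM13 is 1 step of a pathway whose other genes were examined as a list of 7, of which 6 were measured and HEM14 was not analysed here. HEM4, encoding uroporphyrinogen III synthase, was lower in S. cerevisiae at 26.7 ± 3.76 FPKM (SD, n = 6). In S. paradoxus it was 47.2 ± 2.50 (SD, n = 2), a difference of −0.81 (SE 0.18, limma adjusted p = 0.0129), and over the 3 strains of both other species it was 45.7 ± 3.21, a difference of −0.76 (SE 0.16, adjusted p = 0.0295). HEM15, the ferrochelatase that inserts iron in the last step, was higher in S. cerevisiae at 171 ± 32.4 FPKM. Against S. paradoxus, at 91.9 ± 15.4, the difference was 0.88 (SE 0.23, limma adjusted p = 0.0217), and against both species, at 75.1 ± 31.1, it was 1.25 (SE 0.28, adjusted p = 0.0318). All 6 S. cerevisiae strains lay below the other 3 in HEM4 and above them in HEM15. With HEM2, given below, 2 of 6 genes were without overlap and higher and 1 of 6 lower, beside 3.89% and 11.1% of all genes.

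The other 4 measured genes of the list did not pass in either comparison with other species. HEM2, porphobilinogen synthase, differed by 0.75 against both species (limma adjusted p = 0.0988), also without overlap. HEM1, the first enzyme, differed by −0.068 and HEM3 by −0.12 there. HEM12 had 12.3 FPKM in IFO1815 and 105 and 114 in N17 and N44, on either side of the S. cerevisiae range of 66.7 to 91.5. So 1 of 6 was called higher and 1 of 6 lower in each comparison. Of all genes, 1.44% were called higher and 4.81% lower against both species, and 2.45% and 21.5% against S. paradoxus. The list's median was 0.24 against both species and −0.30 against S. paradoxus, beside −0.10 and −0.31 for all genes. Between wild and non-wild strains none passed by limma and none had an unadjusted p under 0.05.

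The HEM4 and HEM15 calls against both species were lost in most fits with 1 strain fewer. HEM4 had limma adjusted p of 0.0579 to 0.0913 without YPS606, DBVPG1788, Y9, BC187, YJM145, N17 or N44, and HEM15 of 0.0575 to 0.0714 without the same strains other than N17. With the environment as a covariate the differences were of similar size, −0.85 for HEM4 (limma adjusted p = 0.155) and 1.10 for HEM15 (0.223). Against S. paradoxus, HEM4 was lost without N17 (0.0778) and under median centring (−0.48, 0.0531), and HEM15 without N17 (0.0523) or N44 (0.129).

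**Figure D5:**
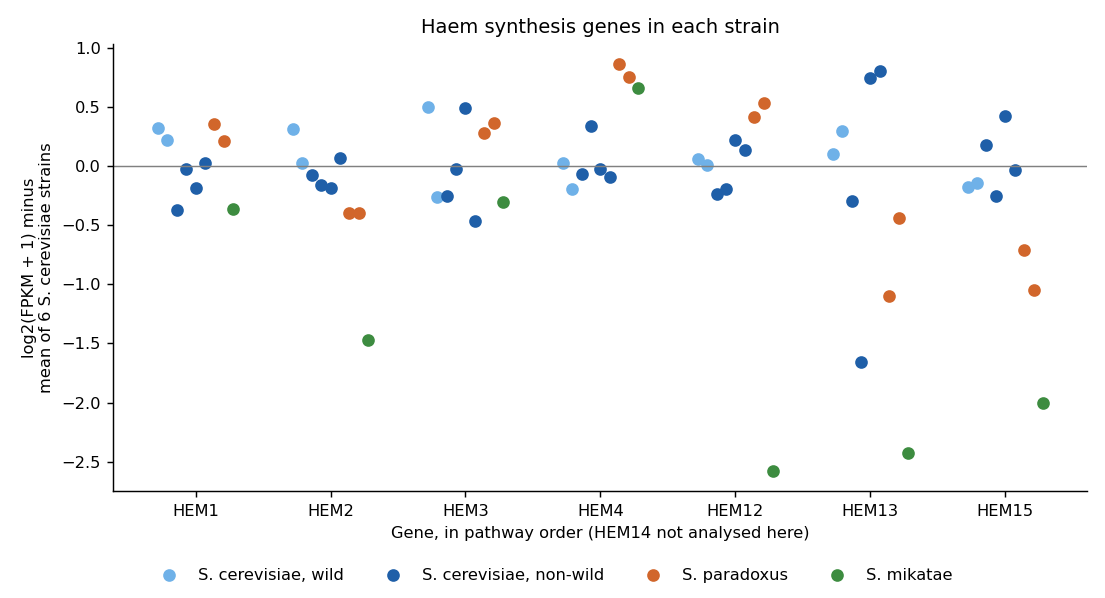
Difference of each haem synthesis gene in each strain from the mean of the 6 S. cerevisiae strains, in log2(FPKM + 1), ordered by pathway step. HEM4 is above the S. cerevisiae strains in all 3 strains of other species, HEM15 is below them, and HEM13 shows the widest spread within S. cerevisiae.

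Among 17 other hypoxic genes, 11 had values. FET4, a low-affinity transporter of iron and other metals, was lower in S. cerevisiae at 49.0 ± 29.3 FPKM (SD, n = 6) against 220 ± 37.0 (SD, n = 2) in S. paradoxus, a difference of −2.36 (SE 0.53, limma adjusted p = 0.0129). Its S. cerevisiae values ran from 19.7 in BC187 to 95.6 in DBVPG1788, below the 193 and 246 of N17 and N44, and IFO1815 had 53.8, inside the S. cerevisiae range. TIR4, a cell wall mannoprotein of the hypoxic TIR family, was higher at 18.2 ± 5.47 against 9.05 ± 1.94 FPKM, a difference of 0.90 (SE 0.28, limma adjusted p = 0.0433). Its relatives share sequence, so its reads may be divided among them. These were 1 higher and 1 lower of 11, beside 2.45% and 21.5% of all genes, with a list median of −0.13 beside −0.31.

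FET4 was not past the threshold without N44 (limma adjusted p = 0.0764) or N17 (0.0595). TIR4 was lost without any of YPS606, DBVPG1788, Y9, YJM145, N17 or N44, at limma adjusted p from 0.0545 to 0.249. Against both other species none of the 10 tested genes of this list passed by limma, with 3 at an unadjusted p under 0.05 (25.2% of all genes) and a median of 0.10 (−0.10 for all genes). DAN1, a mannoprotein of anaerobic cells, had 7.0 FPKM in Y9 and 0.210 to 0.623 in the other S. cerevisiae strains. It was chosen for naming after its values were seen.

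Genes that oxygen and haem activate, 10 of 11 with values, gave no call. Their median difference was 0.19 against both species and 0.025 against S. paradoxus, above the −0.10 and −0.31 of all genes. None had an unadjusted p under 0.05 in either limma fit, against 25.2% and 38.1% of all genes. The regulators, 8 of 14 with values, gave no call either. Their medians of 0.48 and 0.33 were also above the −0.10 and −0.31 of all genes. By limma 3 of 8 and 1 of 8 had an unadjusted p under 0.05, beside the same shares of all genes. Within S. cerevisiae none of the list genes passed between wild and non-wild strains by limma. HMG2, the hypoxic form of HMG-CoA reductase, stood at 41.1% to 84.1% of HMG1 in S. cerevisiae, at 43.8% and 55.0% in S. paradoxus and at 40.5% in IFO1815.

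The genes closest in pattern to each of the 8 were sought over the 8 strains of S. cerevisiae and S. paradoxus among 3888 genes with a mean of at least 10 FPKM, by Pearson's r of log2(FPKM + 1). CYC7 was most like HAB1 (r = 0.96) and NQM1 (0.96), a paralog of transaldolase. AAC1 was most like YDL218W (0.99) and RCF2 (0.97), a respiratory supercomplex factor, and 24 genes reached an r of 0.9 with it. PET9 was most like ALD4 (0.95), the mitochondrial aldehyde dehydrogenase, and CYT1 (0.94), cytochrome c1.

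For AAC3 they were YMC2 (0.95), a mitochondrial carrier, and PRS2 (0.95), and for COX5B VAB2 (0.92) and PEX32 (0.89). HEM13 was most like SUR2 (0.93), a sphingolipid hydroxylase, and MTH1 (0.92), a regulator of glucose transporter genes. ROX1 was most like TOM7 (0.95), of the mitochondrial import machinery, and NDD1 (0.95), a cell cycle activator, and OLE1 most like BNA3 (0.92) and PPZ1 (0.90). These correlations were picked as the highest among many genes over few strains and are given as descriptions.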

How the data were processed

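Polyadenylated RNA of 9 strains was sequenced, and 1 FPKM value per gene and strain was used. Per the submitters' processing notes, reads were handled with cutadapt, TopHat and Cufflinks on build R64. Versions, and how reads of the other species were aligned, are not given in the sources used here. No label or file header names the unit: the deposited values were taken as FPKM because the notes name Cufflinks, and low values times gene length were whole multiples of 1 step (tolerance 0.05) for 94.9% to 97.2% of values in the S. cerevisiae strains. The authors joined 2 YPS606 libraries into 1 value. Of 4325 genes, 4284 matched the R64 RefSeq table, and 4260 had a value in every strain.

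Values were tested on log2(FPKM + 1) with limma 3.58.1 in R 4.3.3 (lmFit, eBayes with trend, two-sided) over genes with a mean of at least 1 and a value in each strain of the fit. The pseudocount of 1 understates changes of low genes. P-values measure the spread between strains. The fit was also run on simulated data, with no outcome given here, so nothing about the species comparisons is drawn from that run. The named genes are the 10 members, their partners, list genes that passed, and the 2 genes of most similar pattern per member. The other haem synthesis genes and the pair HMG2 and HMG1 are named without having passed. The listed regulators on chromosome XI are named because its median was raised in DBVPG6040. YMR266W is named from an alternative fit. DAN1 is a further exception, stated where it is named. Members and lists were chosen with earlier results of these data known. Alternatives were pseudocounts, filters, scalings, no trend, an environment covariate and leaving out each strain.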

Additional observations from a re-analysis of the deposited data

Results flagged for a closer look

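Among the 4 non-wild S. cerevisiae strains, 3 values stood far from the other 3 by Dixon's criterion, of 16 sets of values examined, where chance flags about 1 in 20 (0.8 sets). AAC1 had 4.40 FPKM in BC187, against 9.08 to 9.53 in the others. AAC3 had 1.95 FPKM in DBVPG6040, against 6.74 to 7.45 in the others. OLE1 had 1899 FPKM in Y9, against 1001 to 1152 in the others. The wild strain YPS606, which is outside this set, lay within each of these gaps. It had 6.39 FPKM for AAC1, 5.26 for AAC3 and 1465 for OLE1. The wild strain DBVPG1788 lay in none of them.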

How the results depend on the processing

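Of 508 alternative values for 47 results, 428 were classed as the same. A difference was the same if its sign and call were kept. A ratio had to move by less than the spread, and a count of genes called had to stay within a preset factor. Many of the differences had not passed in the main fit, so they had no call to lose. Calls per comparison depended on the strains and the scaling. Against both species limma called 265 genes, 400 after quantile normalisation, 15 with environment as a covariate, and 109 (without YJM145) to 1025 (without IFO1815) with 1 strain left out. Against S. paradoxus it called 1025 genes, 652 after quantile normalisation, 642 after median centring, and 410 (without N17) to 1185 (without DBVPG6040). Between wild and non-wild strains it called 0, or 1 without DBVPG1788 (YMR266W). The calls against S. paradoxus were 105 higher and 920 lower, 318 and 334 after quantile normalisation, and 304 and 338 after centring. Against both species they were 61 and 204, 162 and 238, and 124 and 180.

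The signs that changed belonged to differences that had not passed. Against both species CYC7 became −0.47 after quantile normalisation and −0.89 with the covariate, COX5B −0.23 and AAC3 0.035 with the covariate. With 1 strain fewer CYC7 ranged from −2.0 to 1.11 and COX5B from −0.32 to 0.37. Against S. paradoxus AAC3 became 0.32 after quantile normalisation and COX5B 0.010 after centring, and PET9 ranged from −0.55 to 0.82 with 1 strain fewer. Between wild and non-wild strains PET9 became 0.027 and OLE1 0.18 after quantile normalisation, and OLE1 0.032 after centring. With 1 strain fewer the ranges there were −0.22 to 0.60 for HEM13, −0.38 to 0.26 for PET9, −0.25 to 0.51 for AAC1, −0.0092 to 1.06 for AAC3 and −0.28 to 0.24 for OLE1. The cause was not tested. No paired analysis was possible because each strain has 1 value and the strains share no replicate numbers across groups. With 2 strains in S. paradoxus and in the wild group, 1 strain decides much of each difference.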
